A study of Mus musculus with 6 samples.

Results

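The interferon regulatory factors (IRFs) of cultured mouse regulatory T cells (Tregs) were followed in 2 groups of libraries, one grown with DEL-1-Fc and one with the Fc control. The genes were chosen by name: the rows of the count files whose Ensembl identifiers belong to Irf1, Irf2, Irf3, Irf4, Irf5, Irf7, Irf8, Irf9 or Irf2bp2, which gave 9 genes among 39179 rows. All 9 passed the low-count filter, which kept 14928 genes. The first 8 encode IRFs, and Irf2bp2 encodes a corepressor named for its binding to IRF2. DEL-1 is a secreted integrin-binding protein, here fused to an antibody Fc part. Both groups started from naive splenic CD4+ T cells of wild-type C57BL/6 mice aged 6 weeks. Both received, over 3 days, 2 µg/ml of anti-CD3 (the prefix of this unit is unreadable in the labels), 1 µg/ml of anti-CD28, 5 ng/ml of TGF-β1 and 40 ng/ml of IL-2. There were 3 polyA RNA-seq libraries per group, with 33364166 to 61967687 counts each. Whether the replicates are separate mice or cultures is not in the labels, so p-values cover the variation among these 6 libraries, part or all of which may be technical.

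IRFs share an N-terminal DNA-binding domain that recognises GAAA-type elements in interferon and interferon-stimulated genes. IRF3 and IRF7 are activated by nucleic acid sensors and turn on interferon genes, IRF9 joins STAT2 in ISGF3, the complex that carries the type I interferon signal, and IRF1 and IRF2 act on the same elements as activator and repressor. IRF4 and IRF8 are the lymphoid and myeloid members: they bind DNA weakly alone and act with partners such as BATF-JUN, PU.1 or SPIB, and IRF4 is induced by T cell receptor signals and needed for effector Tregs.

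Of the 9 genes, 4 (Irf4, Irf5, Irf7 and Irf8) were lower in DEL-1-Fc than in Fc by edgeR's quasi-likelihood test at a Benjamini-Hochberg adjusted p below 0.05. That is 4 fallers, 0 risers and 5 not called. Across all genes tested, 12.6% were called, with 6.4% higher and 6.22% lower. The median log2 fold change of the 9 genes was -0.13, beside 0.01 over all genes. The 0 risers stayed 0 with DESeq2 and limma-voom, and 1 gene, Irf3, was on the higher side at an unadjusted edgeR p below 0.05.

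The promoter sequence just before the start site is shown for the 4 fallers, since these were the members called, and for Irf1, which did not pass the test. Sequences are from RefSeq (GRCm38.p6), 5′ to 3′ along the gene's strand, and the 5 printed together are cut to the stretch that holds no annotated exon of GENCODE M21. All 9 genes had a promoter in that table. Irf1, Irf8 and Irf9 had 2, and the first is printed for Irf1 and Irf8. Capitals mark matches to a pair of IRF half-sites (GAAA, any 2 bases, GAAA), to TTCNNNGAA, the STAT element called GAS, or to TGANTCA, the AP-1 element, each searched on both strands of the 250 bases before the start.
Irf4, chr13:30748983-30749225, plus strand: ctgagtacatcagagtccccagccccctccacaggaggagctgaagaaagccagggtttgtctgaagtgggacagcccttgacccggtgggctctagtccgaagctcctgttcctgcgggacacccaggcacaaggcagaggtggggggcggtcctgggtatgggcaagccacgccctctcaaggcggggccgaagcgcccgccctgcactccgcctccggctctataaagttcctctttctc
Irf5, chr6:29526375-29526624, plus strand: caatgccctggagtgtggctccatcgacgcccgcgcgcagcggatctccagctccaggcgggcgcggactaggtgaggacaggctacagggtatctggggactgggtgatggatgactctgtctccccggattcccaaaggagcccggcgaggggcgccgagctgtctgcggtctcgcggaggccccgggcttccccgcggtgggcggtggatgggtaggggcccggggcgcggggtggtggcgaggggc
Irf7, chr7:141266482-141266674, minus strand: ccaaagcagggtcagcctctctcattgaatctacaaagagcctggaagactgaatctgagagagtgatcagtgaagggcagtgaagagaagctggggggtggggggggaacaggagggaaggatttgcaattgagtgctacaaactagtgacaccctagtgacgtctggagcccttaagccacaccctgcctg
Irf8, chr8:120736108-120736357, plus strand: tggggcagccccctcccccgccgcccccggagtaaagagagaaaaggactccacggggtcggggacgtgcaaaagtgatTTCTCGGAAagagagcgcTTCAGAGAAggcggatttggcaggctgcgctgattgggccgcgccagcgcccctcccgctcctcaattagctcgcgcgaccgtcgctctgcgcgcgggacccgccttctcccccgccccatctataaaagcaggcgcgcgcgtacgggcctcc
Irf1, chr11:53769764-53770013, plus strand: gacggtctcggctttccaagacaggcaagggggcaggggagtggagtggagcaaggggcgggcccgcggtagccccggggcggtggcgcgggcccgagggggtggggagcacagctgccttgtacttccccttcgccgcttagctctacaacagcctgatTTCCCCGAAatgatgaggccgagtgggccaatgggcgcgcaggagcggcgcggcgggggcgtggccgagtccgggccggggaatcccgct

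The first Irf8 promoter held 2 GAS matches, which begin 171 and 153 bases before the start. The first Irf1 promoter held 1, which begins 90 bases before the start. The second promoter of each held no match to any of the motifs. Annotated exons filled all 250 bases of the first Irf9 window and 181 bases of the Irf3 window. The letters of these motifs do not occur in the windows of Irf4, Irf5 and Irf7. Irf2 had both an IRF pair and a GAS match close together, of which 30 bases are shown because no other member had the IRF pair in its window. The 5′ part of this stretch, which holds the IRF pair, lies in an annotated exon of Gm16675.
Irf2, chr8:46739502-46739531, plus strand: gtGAAAATGAAAttgacttTTCCGAGAAat

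Over all 32851 promoters in the table, 2.98% held the IRF pair, 7.02% the GAS letters and 6.75% the AP-1 letters in windows of 250 bases. Among 28 promoters of the ISGF3 target genes described further on, 9 held the IRF pair, 5 the GAS letters and 5 the AP-1 letters. These promoters belong to 23 genes of that list. A match is a match of letters and was not tested as a binding site.

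Per kilobase of merged exon length, Irf8 and Irf4 were the most abundant IRF transcripts in both groups. CPM is a gene's count per 1000000 counts of its library. On the scale of CPM divided by merged exon length in kilobases (CPM per kb), Irf4 stood at 218 ± 4.77 and Irf8 at 212 ± 11.3 in Fc (SD, n = 3), and their libraries overlapped. In DEL-1-Fc, Irf8 stood at 166 ± 7.2 and Irf4 at 154 ± 23.8, also overlapping. Irf1 followed in both groups, at 90.7 ± 2.8 CPM per kb in Fc and 97.5 ± 6.7 in DEL-1-Fc, apart from its neighbours in both.

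Below these, the order in Fc was Irf7 (28.7 CPM per kb), Irf2bp2 (24.8), Irf3 (24.8), Irf9 (19.9), Irf5 (19.3) and Irf2 (9.71). Irf7, Irf2bp2 and Irf3 overlapped as neighbours there, and the others did not. In DEL-1-Fc the order was Irf3 (28.1), Irf2bp2 (22.7), Irf9 (19.4), Irf7 (17.2), Irf5 (13.0) and Irf2 (10.4), with overlap between Irf9 and Irf7 alone. Irf7 thus stood above Irf3, Irf2bp2 and Irf9 by its mean in Fc and below them in DEL-1-Fc, a shift that goes with its fall and is not a separate test. The order depends on the length used: per kilobase of the longest annotated transcript, Irf8 reached 431 CPM per kb in Fc, above Irf4 at 224, and in DEL-1-Fc Irf1 (181) stood above Irf4 (158). On that scale Irf3 (42.0 in Fc) was above Irf7 (33.5 in Fc) in both groups, so that the 2 did not change places.

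The summed level of the 8 IRF genes was 615 to 627 CPM per kb in the Fc libraries and 484 to 526 in the DEL-1-Fc libraries. Irf1 made up 13.9% to 15.1% of that sum in Fc and 18.6% to 19.6% in DEL-1-Fc. Irf4 made up 34.5% to 35.6% with Fc, and 26.2%, 32.3% and 32.6% in replicates 1, 2 and 3 of DEL-1-Fc. The share of Irf8 overlapped between groups, from 32.7% to 35.9% in Fc and from 31.3% to 35.6% in DEL-1-Fc. These shares describe the pool and were not tested, and a share rises when other members fall. They hold for merged exon length alone. Per kilobase of the longest transcript, Irf8 stood at 431 and Irf4 at 224 CPM per kb in Fc, so the shares would differ.

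**Figure D1:**
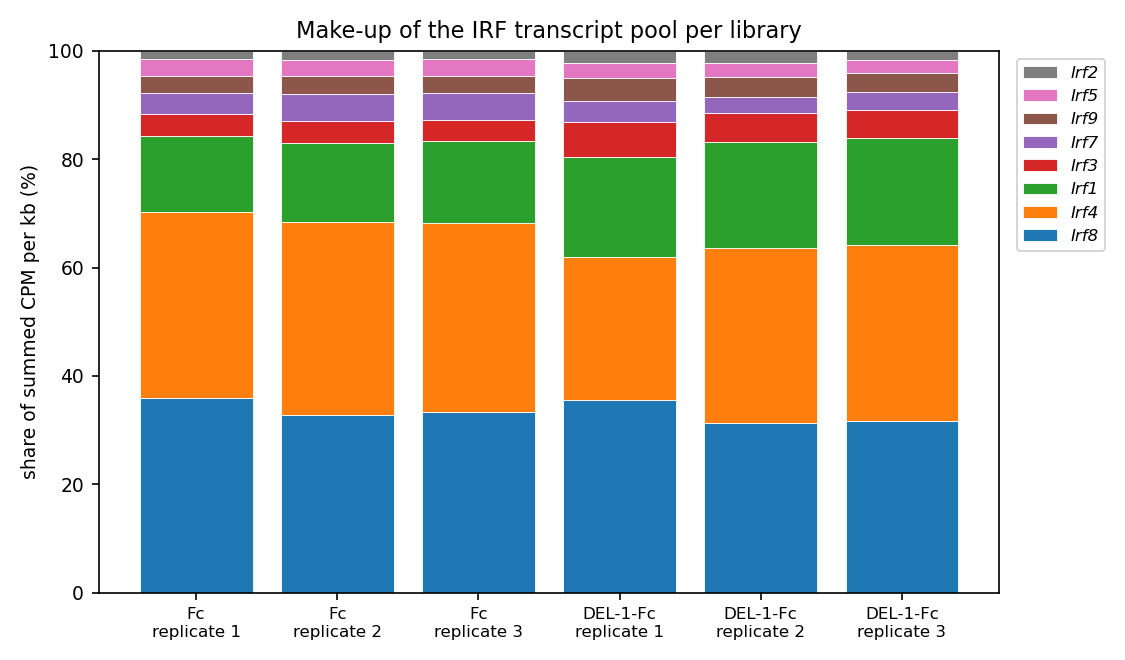
Share of each IRF gene in the summed CPM per kb of the 8 IRF genes (y axis, percent) in each of the 6 libraries (x axis), with the genes stacked in the same order in every bar, Irf8 at the bottom and Irf2 on top. Irf8, Irf4 and Irf1 fill most of each bar, and the Irf1 band is wider in the 3 DEL-1-Fc libraries, at 18.6% or more, than in the 3 Fc libraries, at 15.1% or less.

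Irf4, the IRF induced by antigen receptor signals, measured 1059.6, 1094.5 and 1050.0 CPM in Fc replicates 1, 2 and 3 and 622.0, 801.7 and 840.6 CPM in DEL-1-Fc replicates 1, 2 and 3. Each DEL-1-Fc library lay below each Fc library, as held for 17.5% of all genes tested, and DEL-1-Fc replicate 1 was the lowest. Irf4 fell 1.41-fold (log2 fold change -0.50, SE 0.109, edgeR adjusted p = 0.018). Its DEL-1-Fc libraries had an SD of 117 CPM and its Fc libraries one of 23.4 CPM. Without DEL-1-Fc replicate 1, which is also the shallowest library, the log2 fold change was -0.38 with an adjusted p of 0.000979. Leaving out Fc replicate 1, 2 or 3 ended the call, with adjusted p of 0.0782, 0.0772 and 0.0634, and the log2 fold change was -0.51, -0.48 and -0.51. Over all 15 alternatives the adjusted p ranged from 0.000136 to 0.0782. Irf4 (ENSMUSG00000021356) lies on the plus strand of chromosome 13 from 30749226 to 30766976 (GRCm38) and overlaps no other annotated gene.

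Irf8, the closest relative of Irf4 and a regulator of myeloid and B cell fates, measured 1586.9, 1447.0 and 1451.2 CPM with Fc and 1217.6, 1116.4 and 1174.6 CPM with DEL-1-Fc. The groups did not overlap, and replicate 1 was the highest library of each. Irf8 fell 1.28-fold (log2 fold change -0.35, SE 0.0739, edgeR adjusted p = 0.0149), the smallest of the 4 falls. Leaving out Fc replicate 1, 2 or 3 ended this call too (adjusted p = 0.092, 0.0564 and 0.0567, with log2 fold changes of -0.31, -0.38 and -0.37), and over the 15 alternatives the adjusted p ranged from 2.21e-05 to 0.092. Irf8 (ENSMUSG00000041515) lies on chromosome 8 from 120736358 to 120756694. It overlaps Gm20388, which had 0 counts in every library and shares no exon base with it.

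Irf5, which acts downstream of Toll-like receptors in myeloid and B cells, had the tightest Fc libraries of the family. It measured 55.96, 55.94 and 56.22 CPM with Fc and 40.07, 36.89 and 36.16 CPM with DEL-1-Fc. The gap between groups was far wider than the range within either. Irf5 fell 1.49-fold (log2 fold change -0.57, SE 0.0636, edgeR adjusted p = 0.000653), and the call held in all 15 alternatives, with a highest adjusted p of 0.00705. Irf5 (ENSMUSG00000029771) lies on chromosome 6 from 29526625 to 29541871, and 14.2% of its exon bases overlap Tnpo3 on the other strand, so part of its reads are uncertain. Tnpo3 itself measured 195 ± 4.33 CPM in Fc and 177 ± 9.92 in DEL-1-Fc (SD, n = 3; log2 fold change -0.14, edgeR adjusted p = 0.19).

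Irf7, the interferon-inducible amplifier of type I interferon production, measured 93.6, 118.6 and 113.1 CPM with Fc and 72.3, 57.0 and 65.7 CPM with DEL-1-Fc. The groups did not overlap: the lowest Fc library, replicate 1, lay above the highest DEL-1-Fc library, also replicate 1. Irf7 fell 1.67-fold, the largest change of the family (log2 fold change -0.74, SE 0.11, edgeR adjusted p = 0.00295). The call held in all 15 alternatives, with log2 fold changes from -0.84 to -0.65 and a highest adjusted p of 0.0204. Irf7 (ENSMUSG00000025498) is at 141262706 to 141266481 of chromosome 7, minus strand, and shares 1.19% of its exon bases with Phrf1, a gene on the other strand.

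**Figure D2:**
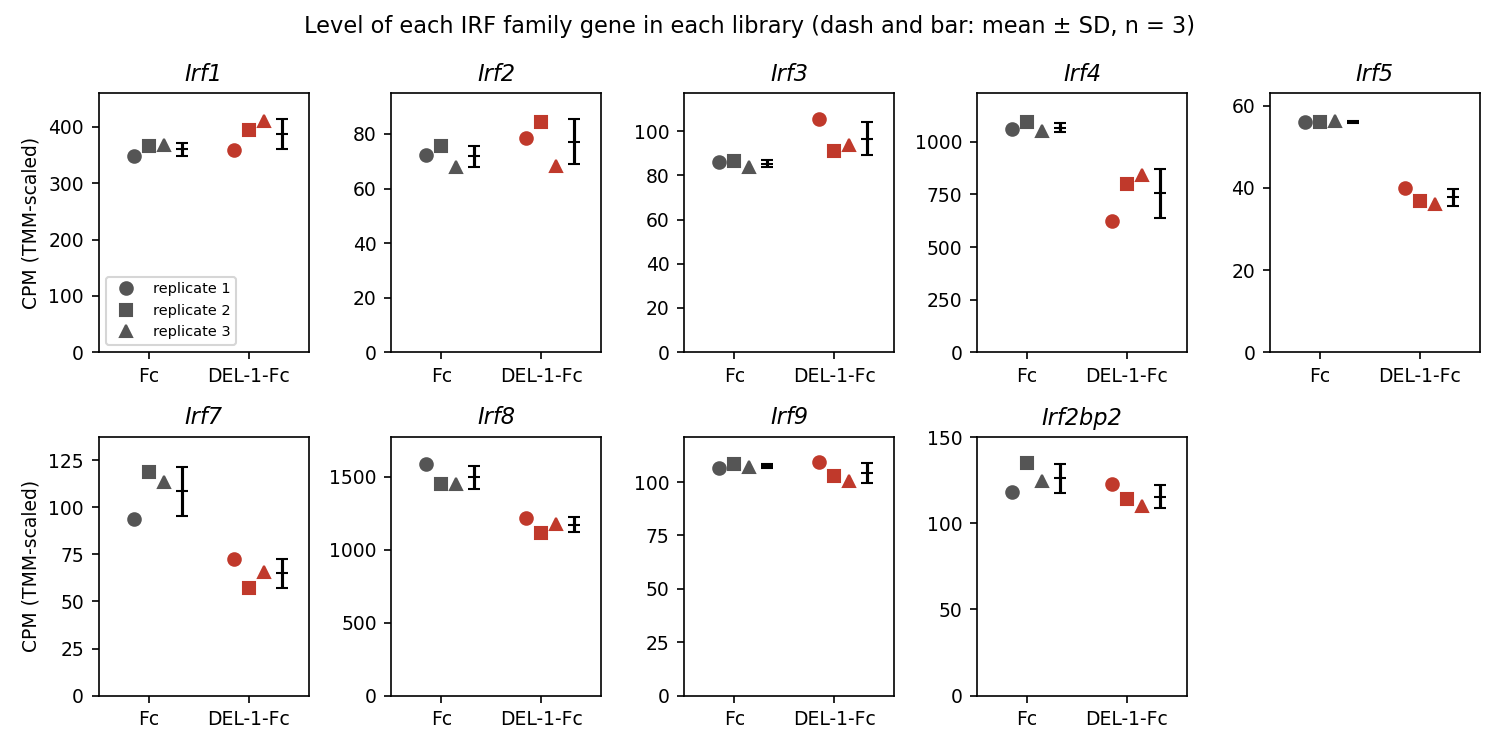
CPM of each gene (y axis, linear and starting at 0, with its own range in each panel) in the 3 Fc (grey) and 3 DEL-1-Fc (red) libraries, with the marker shape giving the replicate and the dash and bar the mean ± SD. Irf4, Irf5, Irf7 and Irf8 have all red points below all grey points, Irf3 has them above, and the groups of the other 4 genes overlap. Over all genes tested, 17.5% had all DEL-1-Fc libraries below all Fc libraries and 17.3% had them above.

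The remaining IRFs did not pass the test. Irf3, the constitutive IRF activated through STING, MAVS and TRIF, measured 85.8, 86.4 and 83.7 CPM with Fc and 105.3, 90.8 and 93.8 CPM with DEL-1-Fc. Its groups did not overlap, as held for 34.8% of all genes tested, and its log2 fold change was 0.18 (95% interval 0.02 to 0.34, edgeR adjusted p = 0.133). DEL-1-Fc replicate 1 was the highest library. Irf3 (ENSMUSG00000003184) spans 44997648 to 45002848 on chromosome 7, and 2.56% of its exon bases overlap Bcl2l12 on the other strand.

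Irf1, the activator induced by interferon-γ, measured 347.7, 365.4 and 368.4 CPM with Fc and 358.3, 394.8 and 410.2 CPM with DEL-1-Fc, so its groups overlapped. Its log2 fold change was 0.11 (95% interval -0.05 to 0.27, edgeR adjusted p = 0.377). Irf2, its repressing counterpart, measured 72.2, 75.5 and 67.7 CPM with Fc and 78.7, 84.5 and 68.4 CPM with DEL-1-Fc, with a log2 fold change of 0.10 (95% interval -0.09 to 0.30, edgeR adjusted p = 0.477). Irf1 (ENSMUSG00000018899) spans 53770014 to 53778374 on chromosome 11 and Irf2 (ENSMUSG00000031627) spans 46739732 to 46847458 on chromosome 8. For both, a rise of the size of any of the 4 called falls lies above the interval.

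Irf9, the DNA-binding subunit of ISGF3, measured 106.4, 108.3 and 107.3 CPM with Fc and 109.6, 103.1 and 100.6 CPM with DEL-1-Fc. DEL-1-Fc replicate 1 was its highest library of the 6 and DEL-1-Fc replicate 3 its lowest. Its log2 fold change was -0.04 with the narrowest interval of the family, -0.17 to 0.09 (edgeR adjusted p = 0.703). Irf9 (ENSMUSG00000002325) spans 55603571 to 55610030 on chromosome 14 and shares 2.28% of its exon bases with Rnf31 on the same strand, which fell (log2 fold change -0.38, edgeR adjusted p = 0.0129).

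The corepressor gene Irf2bp2 measured 118.1, 135.1 and 124.8 CPM with Fc and 122.7, 113.9 and 109.8 CPM with DEL-1-Fc, with overlap between groups and a log2 fold change of -0.13 (95% interval -0.29 to 0.04, edgeR adjusted p = 0.299). Irf2bp2 (ENSMUSG00000051495) spans 126588296 to 126593986 on chromosome 8, minus strand. An antisense gene, Gm26759, covers 20.4% of its exon bases and held at most 2 counts in any library. The relatives Irf2bp1 (log2 fold change 0.06) and Irf2bpl (-0.03) were not called either, with edgeR adjusted p of 0.793 and 0.883.

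**Figure D3:**
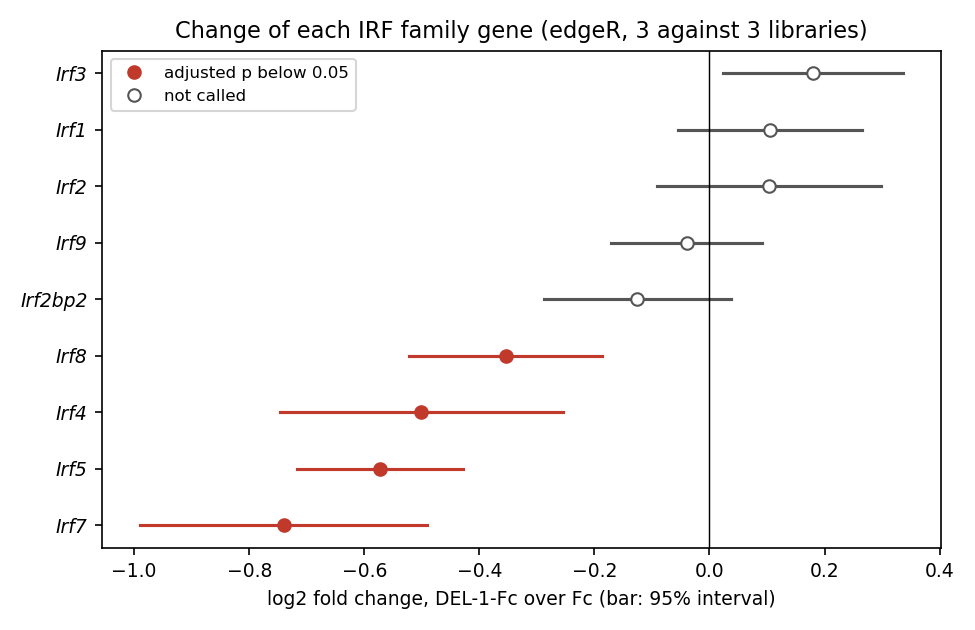
Log2 fold change of DEL-1-Fc over Fc (x axis) for each gene (y axis), with bars for the 95% interval of edgeR's fit and filled red points for an adjusted p below 0.05. The 4 red genes lie between -0.35 and -0.74 with intervals below 0, and the interval of Irf3 lies above 0 although its adjusted p is 0.133.

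The 4 fallers differed in how their libraries lay within the DEL-1-Fc group. Replicate 1 was the lowest of the 3 for Irf4 and the highest for Irf5, Irf7 and Irf8. Among 9091 named genes with a mean of at least 5 CPM, the closest profile to each faller was sought by the root mean square difference of log2 CPM, centred on each gene's mean, over the 6 libraries. Ly75, the endocytic receptor DEC-205 (difference 0.032), and Parp14, an interferon-inducible ADP-ribosyltransferase (0.0432), were nearest to Irf4. Zfp219 (0.0248) and the phosphatase gene Dusp14 (0.0329) were nearest to Irf5. Slc16a3, the lactate exporter MCT4 (0.0715), and Ccrl2, an atypical chemokine receptor (0.0728), were nearest to Irf7, at a wider distance than for the other 3. Tmbim1 (0.0221) and Cdc34b (0.0251) were nearest to Irf8.

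Markers of the cells that normally hold most Irf5 and Irf8 were checked in these cultures. The summed level of 8 T cell markers was 2914 to 3038 CPM in Fc and 2912 to 3194 CPM in DEL-1-Fc. Foxp3, the Treg factor, measured 360 ± 50.1 CPM in Fc and 523 ± 59.7 CPM in DEL-1-Fc (SD, n = 3). Other annotated genes overlap 31.5% of the Foxp3 exon bases, so part of its reads are uncertain. The 6 Treg markers summed to 3623 to 4017 CPM in Fc and 3685 to 4199 in DEL-1-Fc, with Foxp3 (log2 fold change 0.54) and Nrp1 (0.49) called higher and Ctla4 (-0.30) lower. Of the T cell markers Cd28 was called higher (0.23). The calls of Cd28 and Ctla4 were lost in several alternatives, among them without any one Fc library (adjusted p = 0.141 to 0.18 and 0.106 to 0.135) and without DEL-1-Fc replicate 2 (0.0772 and 0.0613). The Cd28 call was lost without DEL-1-Fc replicate 3 as well (0.102), and that of Foxp3 when replicate 1 or 3 of Fc (0.0873 and 0.0753) or replicate 1 of DEL-1-Fc (0.0928) was left out. The 8 B cell markers summed to 11.5 to 12.6 CPM in Fc and 11.3 to 14.1 CPM in DEL-1-Fc. Of these, 0 of 8 were called, where 12.6% of all genes tested were (edgeR; 1 had an unadjusted p below 0.05). The 8 myeloid markers summed to 85.0 to 98.6 CPM in Fc and 26.3 to 40.7 CPM in DEL-1-Fc, nearly all of it Mpeg1, which encodes perforin-2 and fell 2.87-fold (log2 fold change -1.52, edgeR adjusted p = 0.000556). The other 7 myeloid markers, among them Lyz2 and Csf1r, summed to 0.382 to 0.604 CPM in Fc and 0.366 to 0.776 CPM in DEL-1-Fc. Among 8 dendritic cell markers, Clec9a, Siglech and Cd209a had 0 counts in every library, which allows up to 0.0914 CPM in the shallowest. Zbtb46, which was called lower (log2 fold change -0.42), supplied most of that list's 8.96 to 9.19 CPM in Fc and 6.97 to 7.54 CPM in DEL-1-Fc. The other 7 summed to 0.31 to 0.401 CPM in Fc and 0.579 to 0.973 CPM in DEL-1-Fc, and 1 of them, Ccr9, was called higher (2.19, edgeR adjusted p = 0.00803). The Zbtb46 call was lost without any one Fc library (adjusted p = 0.0817 to 0.0981) and without DEL-1-Fc replicate 3 (0.0695). The 5 NK cell markers summed to 193 to 219 CPM in Fc and 101 to 115 in DEL-1-Fc, nearly all of it Eomes, which fell (-0.93), with Ncr1 at 0. The other 4 summed to 1.31 to 1.40 CPM in Fc and 1.89 to 2.97 CPM in DEL-1-Fc, and 1 of them, Klrc1, was called higher (0.90, edgeR adjusted p = 0.0139, lost without any one Fc library at 0.0557 to 0.0685). Other genes share 54.5% of the 31-base words of Klrc1, so part of its reads are uncertain. The 2 CD8 markers summed to 10.1 to 10.4 and 11.9 to 12.8 CPM, and Cd8a rose (0.78, edgeR adjusted p = 0.00607). The part of these marker levels in the IRF results was not tested. Irf8 stood at 1116 CPM or more in every library. In bulk RNA, fewer cells with a transcript and less of it per cell cannot be told apart.

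Of 20 tested genes listed as DNA-binding partners of IRFs, 2 rose and 5 fell, where 6.4% of all genes were higher and 6.22% lower. Binding was not tested. The fallers were Stat2, the ISGF3 subunit beside IRF9 (log2 fold change -0.62), Etv6, an ETS repressor (-0.47), Batf3 and Batf2, leucine zipper partners of IRF4 and IRF8 (-1.40 and -0.95, from 3.05 ± 0.646 and 1.98 ± 0.223 CPM in Fc, SD, n = 3), and Jun (-0.25). Batf, the main partner of IRF4 in T cells, measured 37.3, 36.2 and 37.5 CPM with Fc and 36.3, 27.3 and 30.02 CPM with DEL-1-Fc and did not pass (log2 fold change -0.25, edgeR adjusted p = 0.152). Junb was also not called (-0.32, edgeR adjusted p = 0.0839). The risers were Spib, an ETS partner of IRF4 and IRF8, from 1.47 ± 0.107 CPM in Fc to 3.53 ± 0.352 (SD, n = 3; log2 fold change 1.26, edgeR adjusted p = 0.00074), and Bcl6 (0.89), whereas Spi1, encoding PU.1, was too low to test. The fallers numbered 3 without Fc replicate 1 or 2 and with a stricter filter of 5 CPM in 3 libraries, which left out the low genes, 9 without DEL-1-Fc replicate 1 and 8 without DEL-1-Fc replicate 2. Jun missed the threshold when any one Fc library or replicate 3 of DEL-1-Fc was left out (adjusted p = 0.0853 to 0.142), and Batf2 when Fc replicate 1 (0.0501) or 2 (0.0695) was.

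Upstream of the IRFs, interferon transcripts other than Ifng were sparse. Ifng, which encodes interferon-γ, fell from 36.1, 31.1 and 28.6 CPM with Fc to 10.4, 9.68 and 13.9 CPM with DEL-1-Fc (log2 fold change -1.49, edgeR adjusted p = 0.000418). Ifnb1, encoding interferon-β, had 6, 11 and 8 counts with Fc and 0, 0 and 1 counts with DEL-1-Fc and was removed by the low-count filter. Ifna4 had 17, 14 and 20 counts with Fc and 2, 0 and 5 counts with DEL-1-Fc. Its fall was called (edgeR adjusted p = 0.0311) but lost without any one Fc library (adjusted p = 0.065 to 0.11) and with the replicate block (adjusted p = 0.0522). The list of 10 interferon genes had 2 tested, both lower, where 6.22% of all genes tested were lower. It had 1 lower without Fc replicate 1 or 2 or with the block, and 4 lower with no low-count filter. The interferon-α genes are near-identical copies, 14.5% of the 31-base words of Ifna4 occur elsewhere, and 25.9% of the exon bases of Ifng overlap another annotated gene.

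Of 11 tested interferon receptor and JAK-STAT genes, 1 rose and 3 fell, where 6.4% of all genes were higher and 6.22% lower. Without DEL-1-Fc replicate 1, the risers numbered 2. Ifngr1, the ligand-binding chain of the interferon-γ receptor, rose from 69.5 ± 4.68 CPM in Fc to 114 ± 4.37 (SD, n = 3; log2 fold change 0.72, edgeR adjusted p = 0.000355). Stat2 fell from 199.1, 219.6 and 218.2 CPM with Fc to 125.2, 146.5 and 143.5 CPM with DEL-1-Fc (edgeR adjusted p = 0.0012). Stat4, which carries the IL-12 signal, also fell (-0.59). Stat4 shares 26.7% of its exon bases with the gene model Gm28177, so part of its reads are uncertain. The kinase gene Tyk2 had the smallest fall (-0.23, edgeR adjusted p = 0.0463), lost without any one Fc library or DEL-1-Fc replicate 3 (adjusted p = 0.118 to 0.178), with library sizes alone (0.1), limma-voom (0.0501) and the replicate block (0.0693). The type I receptor chains Ifnar1 (-0.04) and Ifnar2 (0.03) were not called.

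Of 18 tested nucleic acid sensors, adaptors and kinases that activate IRF3, IRF5 and IRF7, 0 rose and 3 fell. Over all genes, 6.4% were higher and 6.22% lower. At an unadjusted p below 0.05 the list's risers also numbered 0 (edgeR), as they did with DESeq2 and limma-voom. The list had 1 riser and 4 fallers without DEL-1-Fc replicate 1. Tlr7, the endosomal RNA sensor upstream of IRF5 and IRF7, fell from 33.7, 37.6 and 37.1 CPM with Fc to 13.1, 14.1 and 18.0 CPM with DEL-1-Fc (log2 fold change -1.26, edgeR adjusted p = 0.000299). Ifih1, encoding the RNA sensor MDA5 (-0.58), and Dhx58, encoding its relative LGP2 (-0.56), fell as well, both of them also interferon-inducible. The IRF3 kinase genes Tbk1 (0.15) and Ikbke (-0.01) were not called. Dhx58 missed the threshold with Fc replicate 2 or 3 left out (0.0554 and 0.0553 as adjusted p), and with replicate 1 of DEL-1-Fc left out (0.0628), and Tlr9 was at most 1.1 CPM in any library.

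Downstream, targets of ISGF3 moved down as a set of counts. Of 31 tested, 19 fell, 0 rose and 12 did not pass, where 6.22% of all genes were lower, and their median log2 fold change was -0.61. At an unadjusted edgeR p below 0.05, 1 was higher, and DESeq2 called 22 lower and 1 higher, whereas limma-voom called 19 and 0. Usp18, the negative regulator of the type I receptor, measured 69.7, 84.2 and 93.8 CPM with Fc and 26.9, 22.9 and 29.0 CPM with DEL-1-Fc (log2 fold change -1.65, edgeR adjusted p = 0.000122). Oas3, an RNA-sensing synthetase (-1.32), and Ifi44 (-1.51) fell in the same way, with groups that did not overlap. Like Irf7, these genes had Fc replicate 1 as the lowest Fc library. The list's fallers numbered 15 to 20 when any one library was left out. Several antiviral genes of the list were known to have fallen when the list was written, so its direction is not independent evidence.

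Targets of IRF1 and interferon-γ went both ways: of 24 tested, 4 rose, 5 fell and 15 did not pass. Their median log2 fold change was -0.02, and over all genes 6.4% were higher and 6.22% lower. The guanylate-binding protein genes Gbp2 (0.72), Gbp3 (0.59) and Gbp7 (0.65) rose. Gbp2 measured 454.1, 524.9 and 504.9 CPM with Fc and 789.9, 818.9 and 828.3 CPM with DEL-1-Fc. The chemokine gene Cxcl10 fell (-1.49, from 5.82 ± 0.845 to 2.07 ± 0.312 CPM, SD, n = 3), as did Il12rb1, an IL-12 receptor chain (-0.44), and Tapbp, the peptide-loading factor tapasin (-0.36, lost without Fc replicate 2 or 3 at adjusted p = 0.0648 and 0.0668). Ciita, the class II transactivator, rose from 0.316 ± 0.0429 to 0.691 ± 0.165 CPM (SD, n = 3). The GTPase gene Iigp1 (-0.36) and B2m, the class I light chain (-0.27), completed the fallers. The calls of Ciita, Iigp1 and B2m were each lost without any one Fc library (adjusted p = 0.0797 to 0.119, 0.0612 to 0.138 and 0.106 to 0.214) and without DEL-1-Fc replicate 2 (0.0818, 0.0641 and 0.0892), and that of B2m without DEL-1-Fc replicate 3 (0.111). With library sizes alone, Iigp1 (0.0616) and B2m (0.0529) missed the threshold, and B2m did so with no low-count filter (0.0994), no robust dispersion (0.0687) and the replicate block (0.0877). The Gbp genes are a multigene family, and Gbp7 shares 14.8% of its 31-base words with other genes. Overlap with other genes covers 29% of the Tapbp exon bases. Leaving out Fc replicate 1, 2 or 3 gave 3, 2 and 2 fallers, leaving out DEL-1-Fc replicate 1 or 2 gave 8 and 3, and library sizes alone gave 3.

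Genes listed as targets of IRF4 and BATF in effector T cells also split, and their control by either factor was not tested. Of 23 tested, 6 rose, 11 fell and 6 did not pass, beside 6.4% higher and 6.22% lower over all genes. Their median log2 fold change was -0.28. Bhlhe40 (-0.96), Tigit (-1.06) and Cd44 (-0.80) had the smallest p among the fallers. Maf (1.43), Cxcr3 (0.85) and Itgae (0.76) had the smallest p among the risers. Prdm1, encoding Blimp-1, measured 1.22 ± 0.247 CPM in Fc and 0.903 ± 0.19 CPM in DEL-1-Fc (SD, n = 3) and was not called. Leaving out Fc replicate 1, 2 or 3 gave 6, 7 and 6 fallers. The risers numbered 2 when Fc replicate 2 or 3 was left out, 3 without DEL-1-Fc replicate 2 and 2 without DEL-1-Fc replicate 3. Itgae missed the threshold with any one of 4 libraries left out, replicates 2 and 3 of Fc (adjusted p = 0.0962 and 0.0951) and replicates 2 and 3 of DEL-1-Fc (0.0591 and 0.0542), and under the replicate block (0.0557).

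Of 16 genes listed as negative regulators of IRF signalling, 2 rose and 3 fell, beside 6.4% higher and 6.22% lower over all genes. Some of the listed genes act on cytokine receptors or STAT proteins and not on IRFs themselves. Socs3, a cytokine feedback inhibitor (0.39), and Pias1, a SUMO ligase that restrains STAT proteins (0.23), rose. Usp18, Tnfaip3, the ubiquitin editor A20 (-0.33), and Ptpn6, the phosphatase SHP-1 (-0.26), fell. The risers numbered 0 without Fc replicate 1 or 3, 1 without Fc replicate 2 or without DEL-1-Fc replicate 2 or 3, 1 with no low-count filter and with the replicate block, and 5 without DEL-1-Fc replicate 1. The fallers numbered 1 without Fc replicate 2. Socs3 missed the threshold with Fc replicate 1 or 3 left out (0.0968 and 0.0737 as adjusted p), Tnfaip3 without Fc replicate 2 (0.0521), and Ptpn6 without any one Fc library (0.0881 to 0.115). Pias1 missed it when any one library other than DEL-1-Fc replicate 1 was left out (0.052 to 0.14). Socs1, the main inhibitor of JAK kinases under interferon, was not called (0.04).

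**Figure D4:**
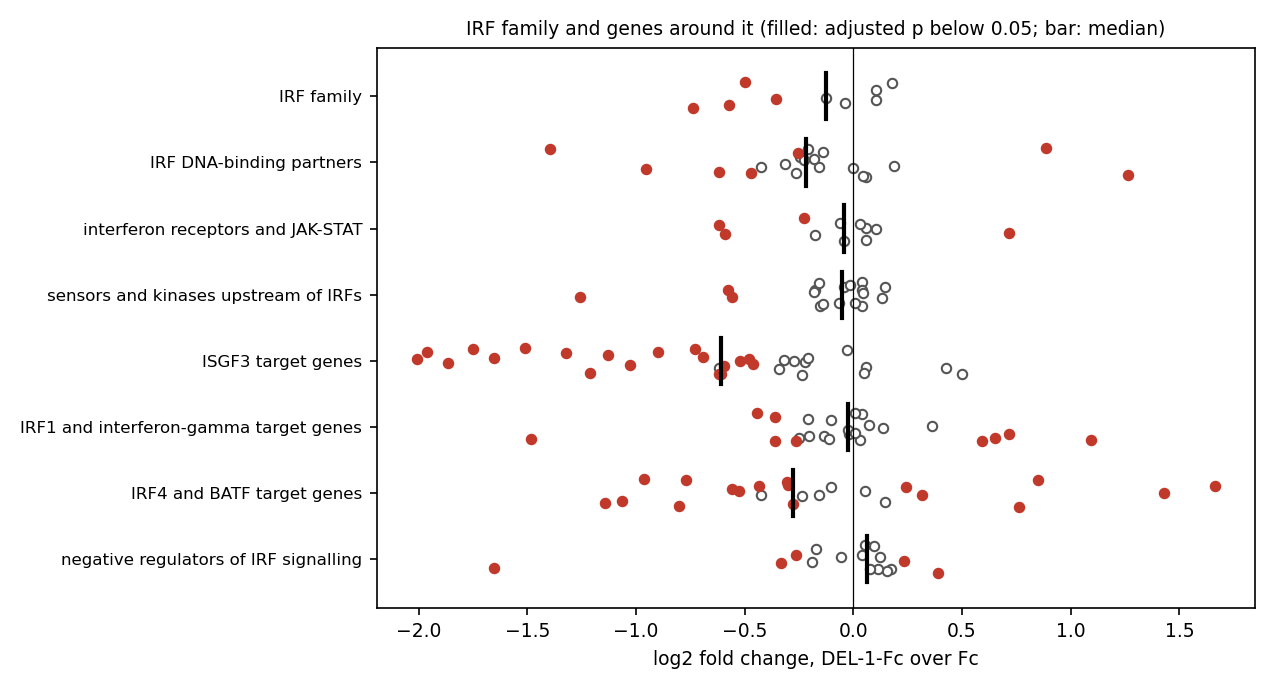
Log2 fold change of DEL-1-Fc over Fc (x axis) for every tested gene of the IRF family and of 7 gene lists around it (y axis, points spread vertically for clarity), filled where the adjusted p is below 0.05, with a black bar at each list's median. The ISGF3 targets have their median at -0.61 and no filled point to the right of 0, while targets of IRF1 and interferon-γ have filled points on both sides and a median of -0.02.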

How the data were processed

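The authors deposited untransformed read counts for each gene and library. Per the submitters' processing notes, STAR (no version) and HTSeq 0.6.0 were used with GRCm38 (mm10). The annotation release, strand setting and multi-mapping rule were not given in the sources used here. Of 39179 rows, 37607 matched GENCODE M21 (GRCm38), which gave names, coordinates and exon lengths.

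The deposited counts were tested in R 4.3.3 with edgeR 4.0.16, using filterByExpr on the groups (minimum count 10, minimum total 15), TMM scaling and the robust quasi-likelihood test, with Benjamini-Hochberg adjustment over 14928 genes and a threshold of 0.05. CPM uses TMM-scaled library sizes. SE is the absolute log2 fold change over the square root of F. A count of 0 allows up to 3 counts, by counting error alone. Replicates of a group differed beyond sampling noise. Chi-square divided by its degrees of freedom was 18.3 to 20.8 between Fc libraries and 32.4 to 62.5 between DEL-1-Fc libraries. The pairs with DEL-1-Fc replicate 1 were the highest, at 62.5 with replicate 2 and 50.0 with replicate 3. Alternatives were DESeq2 1.42.0, limma-voom (limma 3.58.1), other scaling factors, filters and dispersion settings, the replicate number as a block and each library left out. Scripts were tested on simulated data.

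The members and lists were chosen with earlier results of these data known. Named in the text are all members, the 3 called genes of smallest p in each direction of each list, all called genes of a list's counts of 5 or fewer, and the 2 nearest profiles per called member. Ifnb1, Batf, Junb, Spi1, Ifnar1, Ifnar2, Tbk1, Ikbke, Tlr9, Prdm1, Socs1, the genes overlapping members and single markers were named after their values were seen. The lists share genes, among them Stat2 and Usp18, and some genes that belong to them or to the family are not reported here. Mb21d1 and Gbp5 were not matched.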

Additional observations from a re-analysis of the deposited data

How the results depend on the processing

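Over all genes, 1884 were called, and the number ranged from 901 to 3003 when any one library was left out, lowest without Fc replicate 1 and highest without DEL-1-Fc replicate 1. Of the 9 IRF family genes, 4 were called, and 2 to 4 when any one library was left out. The count was 2, Irf5 and Irf7, without any one Fc replicate. It was 4 without any one DEL-1-Fc replicate and in each of the other alternatives. The cause of these losses was not tested. Same-numbered libraries of the 2 groups correlated weakly in their deviations from the group means (r = 0.0163, 0.0885 and 0.0425 across 14928 genes). DEL-1-Fc replicate 1 correlated best with Fc replicate 3 (r = 0.0382), and every other library with its own number. Such weak correlations cannot settle whether same-numbered libraries share a source, which the labels do not give. With the replicate block, 1510 genes and 4 IRF family genes were called. Library sizes alone gave 1122 higher and 753 lower genes, beside 956 and 928 with TMM. Levels per kilobase moved by more than 1 SD with the longest transcript as length in both groups for Irf1, Irf2, Irf3, Irf5, Irf7, Irf8 and Irf9, and in Fc for Irf4.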
